A study of Mus musculus with 4 samples.

Results

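The genes described here are 9 genes used as markers of microglia, the resident macrophages of the brain, in the dentate gyrus of handled control mice. They are C1qa, C1qb, C1qc, Ctss, Csf1r, Tyrobp, Cx3cr1, Csf3r and Irf8, and they were chosen by name. All probe sets whose single annotated symbol is one of them were taken, which gave 13 probe sets for the 9 genes, out of 10833 probe sets for 8251 genes in all. RNA came from the dentate gyrus, the granule cell field of the hippocampus. The donors were young C57BL/6J males that were handled by an experimenter and received nothing else. The 4 samples form 1 group and were taken 1, 2, 4 and 6 h after a parallel set of mice had its final shock, with 1 array at each hour. Samples of shocked animals are not analysed here. How many animals each sample pools is not given in the sources used here, and nothing says that the samples came from separate cohorts. The p values therefore set a slope only against the scatter of these 4 arrays around a straight line, with variance estimates shared across genes. With 1 array per hour, that scatter holds any course that is not a line as well as array noise.

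C1q is the recognition molecule that starts the classical complement pathway. Each of its stalks winds an A, a B and a C chain together, encoded by C1qa, C1qb and C1qc, and in the brain C1q is made mainly by microglia and is known for marking synapses that microglia then remove. Csf1r binds CSF1 and IL-34 and keeps microglia alive, Cx3cr1 binds the neuronal chemokine fractalkine, and Csf3r is the receptor for G-CSF, best known on neutrophils. Tyrobp (DAP12) is the signalling adaptor of TREM2 and related receptors, Ctss (cathepsin S) is a lysosomal protease that cleaves the invariant chain of MHC class II, and Irf8 is a transcription factor of the myeloid lineage that often binds DNA together with PU.1.

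C1qb, C1qc and C1qa stand next to each other, in that order, among the protein-coding genes of chromosome 4. Whether promoter sequence bears on the courses described below was not tested. The stretches ahead of the C1qb and C1qc start sites are shown for reference. Each is the 250 bases before the start site, 5′ to 3′ on the gene's own strand, from RefSeq on GRCm38.p6. Capitals mark GAGGAA or its reverse complement TTCCTC, the core of the sequence that PU.1 binds.
C1qb, chr4:136886201-136886450, minus strand: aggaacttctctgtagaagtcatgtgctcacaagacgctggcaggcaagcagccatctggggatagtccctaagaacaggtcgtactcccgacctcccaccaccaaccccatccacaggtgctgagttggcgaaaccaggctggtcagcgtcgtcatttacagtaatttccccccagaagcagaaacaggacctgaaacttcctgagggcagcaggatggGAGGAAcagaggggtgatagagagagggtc
C1qc, chr4:136892915-136893164, minus strand: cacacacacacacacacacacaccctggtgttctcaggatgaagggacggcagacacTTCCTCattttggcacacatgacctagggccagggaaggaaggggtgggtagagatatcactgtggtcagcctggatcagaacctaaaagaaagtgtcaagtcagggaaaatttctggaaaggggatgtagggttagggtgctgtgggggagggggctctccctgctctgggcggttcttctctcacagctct
The C1qb stretch holds 1 match, starting 30 bases before the start site on the gene's strand. The C1qc stretch holds 1 match, starting 193 bases before the start site on the opposite strand. Of the 9 genes, 6 matched a RefSeq promoter entry (C1qb, C1qc, Ctss, Csf3r, Irf8 and Cx3cr1) and 4 of those 6 held a match, the other two with one being Ctss and Csf3r. Counted by window, 4 of 7 held a match, since Irf8 had more than 1 window and no match. Among all 32851 such windows, 23.3% held the same letters on either strand. A match is a string of letters and not a measured site.

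Values are array intensities on a linear scale, given in the order 1, 2, 4 and 6 h. The arrays had median intensities of 184.8 to 212.8 over all probe sets, highest at 4 h, and trimmed means of 499.7 to 499.9. A gene entered the test if its mean log2 intensity was at least 7.41, an intensity of 170.4, which left 4951 genes. All 9 genes passed through the probe set with the highest mean. The 4 h array also had the most extreme values over all genes: it held the highest value for 31.4% of the tested genes and the lowest for 29.2%, where the other arrays held 22.3% to 24.5%. Levels of different probe sets are not set against each other, since probes differ in brightness for reasons unrelated to RNA amount. In these bulk samples fewer microglia and less RNA per microglial cell cannot be told apart.

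**Figure D1:**
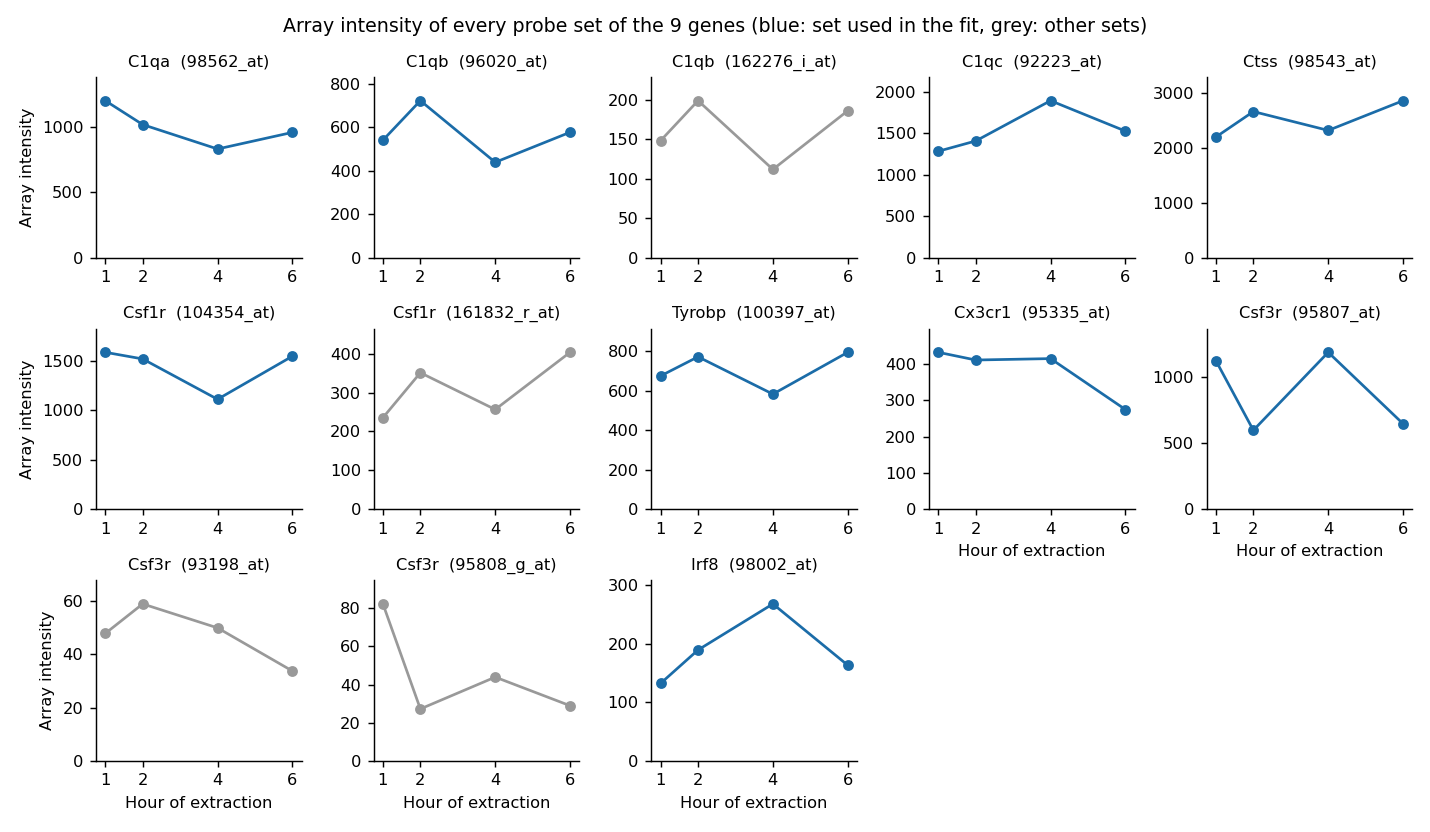
Array intensity (y axis, linear, from 0) against the hour of extraction (x axis) for each of the 13 probe sets, with 1 array per point; blue marks the probe set used in the fit and grey the others of the same gene. C1qa and both C1qb probe sets have their lowest point at 4 h, where C1qc and Irf8 have their highest.

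The C1q chain genes did not share a course. C1qa (probe set 98562_at) read 1198.8, 1016.0, 829.5 and 956.4. It was highest at 1 h and lowest at 4 h, a 1.45-fold span. C1qb (96020_at) read 540.6, 722.5, 438.7 and 577.0, highest at 2 h and lowest at 4 h with a 1.65-fold span. A second C1qb probe set (162276_i_at) read 148.4, 199.2, 111.9 and 186.4 and had its highest and lowest values at the same hours. C1qc (92223_at) read 1284.4, 1409.0, 1896.1 and 1528.5, so that the hour at which the A and B chain genes were lowest was the hour at which the C chain gene was highest.

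Set against the mean of the other 3 hours, the 4 h array was lower by log2 −0.34 for C1qa, by −0.47 for C1qb and by −0.66 for the second C1qb probe set, and higher by 0.43 for C1qc. As folds, these were 0.79, 0.72 and 0.63 of the other hours for the A and B chains and 1.35 times for the C chain. Differences of this size were common on that array: 60.7% of the tested genes lay closer to their other hours at 4 h than C1qa did, 75.0% than C1qb and 71.5% than C1qc. With 1 array at 4 h the opposite positions of C1qc and of C1qa and C1qb have no replicate and were not tested. Scaling each array to its median moves the median of all tested genes at 4 h to −0.17. With that scaling the 4 h value stood at −0.54 for C1qa, −0.67 for C1qb and 0.24 for C1qc. Relative to the median of all tested genes, which such a scaling moves along with every gene, they stood at −0.37, −0.49 and 0.41.

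**Figure D2:**
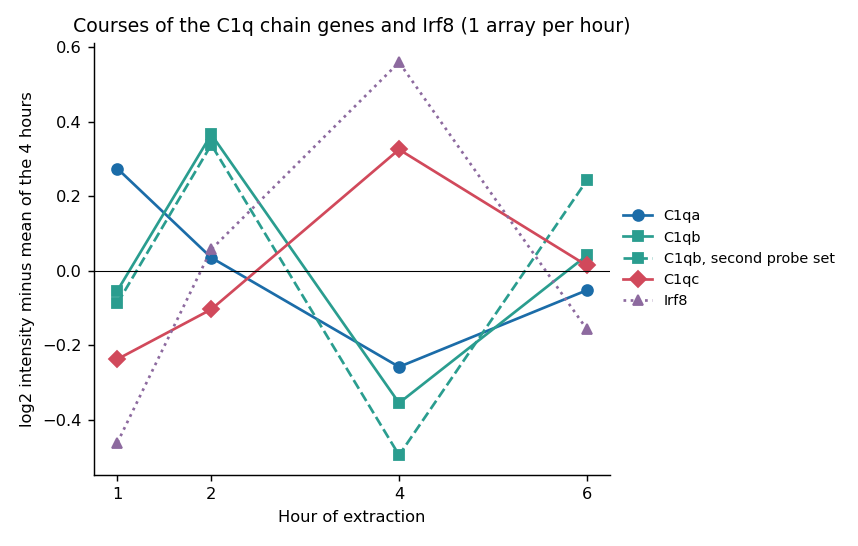
log2 intensity minus the mean of the 4 hours (y axis) against the hour of extraction (x axis) for the C1q chain genes, both C1qb probe sets and Irf8, with 1 array per point. C1qc and Irf8 are highest at 4 h, while C1qa and both C1qb probe sets are lowest there.

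The receptor genes were steady in Csf1r and Cx3cr1 except for 1 array each. Csf1r (104354_at) read 1585.7, 1518.4, 1110.7 and 1546.2. The values at 1, 2 and 6 h lay within 1.04-fold of each other, and the 4 h array stood at 0.72 of their mean. A second Csf1r probe set (161832_r_at) read 235.5, 351.2, 256.6 and 403.8, and was lowest at 1 h rather than at 4 h. Both sets were lower at 4 h than at 2 and 6 h, but they ordered the 1 h sample at opposite ends.

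Cx3cr1 (95335_at) read 432.4, 411.1, 415.0 and 274.6. Its values at 1, 2 and 4 h lay within 1.05-fold of each other and the 6 h array stood at 0.65 of their mean, further from the other hours than 91.6% of the tested genes at 6 h. Its ligand gene Cx3cl1, which neurons express as membrane-bound fractalkine, read 14661.8, 12283.9, 13483.9 and 12946.9, a span of 1.19-fold. A second Cx3cl1 probe set read 43.5, 281.8, 312.1 and 166.6, lowest at the hour at which the first was highest.

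Csf3r had the widest spread of the 9 genes on the log2 scale, with an SD of 0.52 over the 4 samples, wider than that of 90.7% of the tested genes. Its brightest probe set (95807_at) read 1127.0, 599.0, 1191.1 and 648.3, with the 1 h and 4 h arrays high and the 2 h and 6 h arrays low. A second set (95808_g_at) read 82.3, 27.2, 43.9 and 28.9, also higher at 1 and 4 h than at 2 and 6 h, with 2 of the 4 values under the floor of 38.3 that was set before log2. The third (93198_at) read 47.8, 58.9, 49.9 and 33.7, highest at 2 h, where both other sets were low, with its 6 h value under the floor. The probe sets therefore do not give 1 course for Csf3r, and the one used in the fit is the only one of the 3 past the filter. The gene for its ligand, Csf3 (G-CSF), read 391.6, 241.0, 633.8 and 524.1.

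The adaptor and protease genes spread least. Tyrobp (100397_at) read 675.9, 772.9, 583.6 and 795.8, lowest at 4 h with a 1.36-fold span. Ctss (98543_at) read 2196.6, 2659.9, 2316.6 and 2858.5, with 2 and 6 h above 1 and 4 h and a 1.3-fold span, the narrowest of the 9 genes. The SD of log2 intensity was 0.2 for Tyrobp and 0.18 for Ctss, and 36.2% and 27.2% of the tested genes had a smaller one. Tyrobp, Csf1r, C1qa and C1qb were the members lowest at 4 h, 4 of 9, where 29.2% of all tested genes were lowest.

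Irf8 (98002_at) read 132.3, 189.4, 268.1 and 163.3. It was highest at 4 h and lowest at 1 h, a 2.03-fold span, and was the 1 member of 9 past 2-fold, where 15.0% of the tested genes were. Its mean of 188 ± 58.1 (SD, n = 4) lies near the filter, and among tested genes with a mean intensity under 500, a bound chosen after the values were seen, 27.8% spanned more than 2-fold. The span of Irf8 was 1.77-fold with median scaling, 1.79-fold with quantile normalisation and 1.74-fold with 50 added before log2. With quantile normalisation Csf3r (95807_at) spanned 2.04-fold, so that 1 member was again past 2-fold but not the same one.

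On the 4 h array C1qc, Irf8 and the brightest of the 3 Csf3r probe sets (95807_at) were highest. The summed intensities of border macrophage and monocyte genes and of choroid plexus genes were highest there too. At 2 h both sums were also above their values at 1 and 6 h. The summed intensity of 15 genes of border macrophages and monocytes was 866, 1589, 1643 and 1104. Of these 15 genes 2 passed the filter, Plac8, highest at 4 h, and Stab1, highest at 2 h (274.6 against 241.0 at 4 h). That of 7 choroid plexus genes was 2784, 5786, 7069 and 3736, with transthyretin (Ttr), the thyroid hormone carrier of choroid plexus epithelium, 29.62-fold higher at 4 h than at 1 h. Ttr read 81.3, 233.6, 2408.1 and 191.2, and Igf2, brighter on average, read 1849.1, 4402.2, 2954.6 and 2520.8. Of the 4 choroid plexus genes past the filter 3 were highest at 4 h, and Igf2 was highest at 2 h. Such sums weigh bright probe sets most. The part of these cells in the values of C1qc, Irf8 and that Csf3r probe set was not tested.

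No trend with the hour was called for any of the 9 genes. A line of log2 intensity on the hour was fitted with limma over all 4951 genes, and 0 of 9 members had an adjusted p under 0.05, as did 0.0% of all tested genes. At an unadjusted p under 0.05 there were again 0 of 9 members, where 2.02% of the tested genes passed. The limma slope closest to that threshold was that of Cx3cr1, at −0.12 ± 0.08 log2 per h (SE, n = 4; 95% interval −0.3 to 0.06; unadjusted p = 0.177; adjusted p = 0.99993). The interval of its fitted change from 1 to 6 h runs from 0.35-fold to 1.24-fold, so a change past 2-fold downward is not outside it.

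The other slopes lay between −0.07 and 0.06 log2 per h. The limma slope was −0.07 (95% interval −0.21 to 0.07) for C1qa, −0.03 (−0.2 to 0.14) for C1qb and 0.06 (−0.07 to 0.2) for C1qc, and the 3 intervals overlap. As fitted folds from 1 to 6 h the intervals are 0.49 to 1.28 for C1qa, 0.49 to 1.61 for C1qb and 0.78 to 1.99 for C1qc. Those of Ctss and Tyrobp run from 0.78 to 1.82 and from 0.62 to 1.8, and that of Irf8 from 0.46 to 3.4, the widest of the 9. Slopes were positive in 4 of 9 members, against 49.9% of the tested genes, and the median slope was −0.03 in the members and 0.0 in all tested genes. Over all tested genes, 13 were called without the 1 h sample and 9 without the 6 h sample, and 0 of the 9 members were among them.

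**Figure D3:**
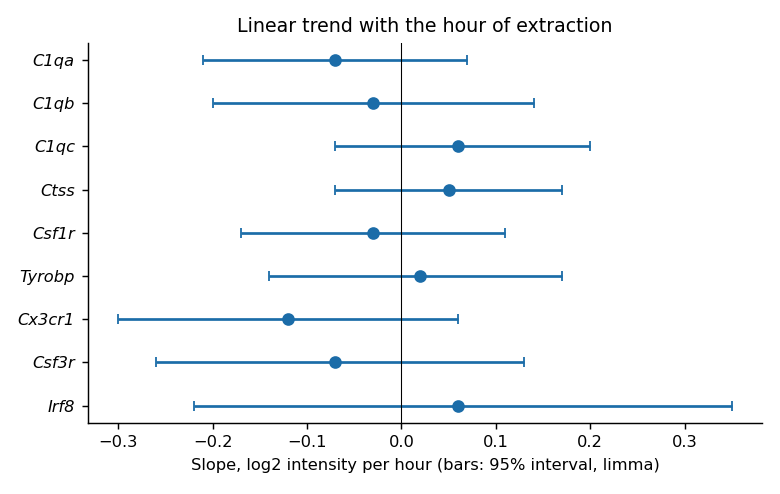
Slope of log2 intensity per hour of extraction (x axis) for each of the 9 genes (y axis), from limma over 4951 genes and 4 samples; points are estimates and bars 95% intervals. All 9 intervals include 0, and that of Irf8 is the widest.

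The median spread of the 9 genes over the samples was close to that of all tested genes, with brightness not matched. Spans past 2-fold were found in 27.8% of tested genes with a mean under 500, beside 15.0% of all. Of the members, only Cx3cr1 and Irf8 had means under 500, so all tested genes are a dimmer reference for the others. The SD of log2 intensity over the 4 samples ran from 0.18 (Ctss) to 0.52 (Csf3r) with a median of 0.24, against a median of 0.25 over all tested genes. C1qa and C1qb had SDs of 0.22 and 0.3, larger than 41.0% and 62.2% of the tested genes, and C1qc had 0.24, larger than 47.1%. Irf8 and Csf3r stood highest among the members, above 83.6% and 90.7% of the tested genes.

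**Figure D4:**
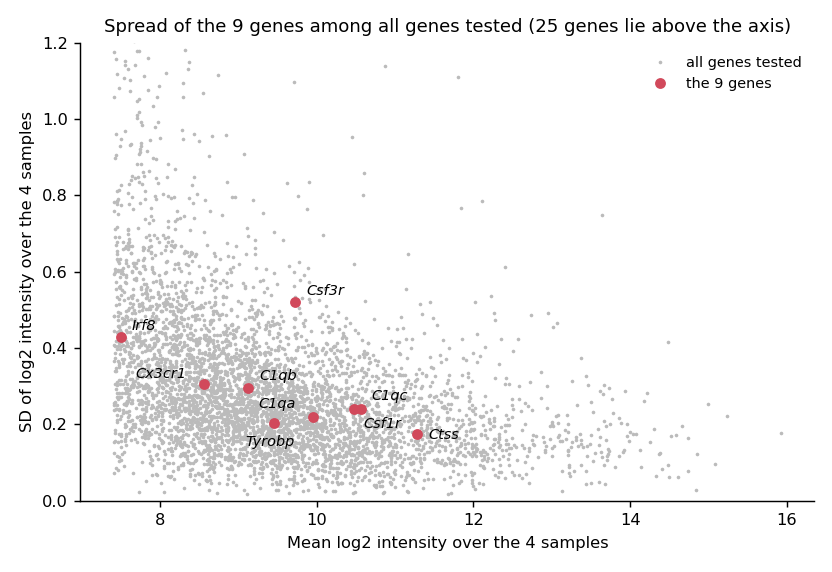
SD of log2 intensity over the 4 samples (y axis) against the mean log2 intensity (x axis) for all 4951 tested genes (grey) and the 9 genes (red), with 25 genes above the end of the y axis. Csf3r, at 0.52, and Irf8, at 0.43, lie highest among the 9, and Ctss, at 0.18, lies lowest.

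How alike the courses of any pair of members were was measured as the root mean square distance between their log2 values, each set to its own mean, over the 4 samples, where 0 is the same course. Over the 36 pairs of members the median distance was 0.39, against 0.33 over all pairs of tested genes. The nearest pairs were Ctss with Tyrobp (0.11), C1qa with Csf1r (0.12), Csf1r with Tyrobp (0.12) and C1qb with Tyrobp (0.14). Among the C1q chains the distance was 0.24 between C1qa and C1qb, 0.39 between C1qa and C1qc and 0.42 between C1qb and C1qc. Of all pairs of tested genes, 29.3% were nearer to each other than C1qa and C1qb and 68.7% nearer than C1qb and C1qc. The member nearest to C1qc was Irf8 (0.2), and the most distant pair was C1qb with Csf3r (0.68). All these distances share the same 4 arrays and depths of hybridisation and are a description of them.

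**Figure D5:**
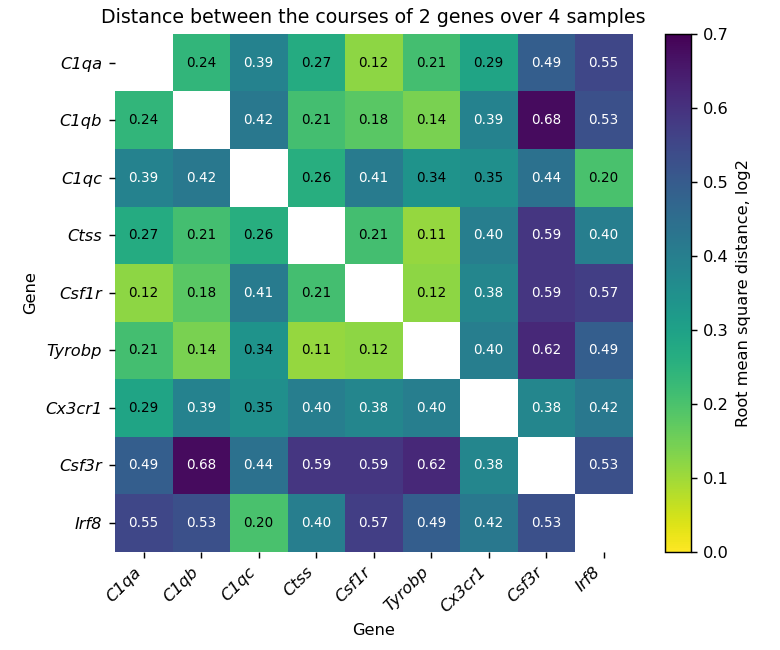
Root mean square distance in log2 units between the courses over 4 samples for each pair of the 9 genes (both axes), where lighter squares are more alike. C1qa, C1qb, Ctss, Csf1r and Tyrobp lie within 0.27 of each other, C1qc lies nearest to Irf8 (0.2), and Csf3r lies at least 0.38 from every other member.

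Averaged over the C1q chains, the course was nearly flat, with mean centred log2 values of −0.01, 0.1, −0.1 and 0.0, since C1qc offset C1qa and C1qb at 4 h. The 5 other genes nearest to that average over the 4 samples were Csnk1e, Mff, Sfpq, Nav2 and Btbd1, at distances of 0.01 to 0.022. Csnk1e, which encodes casein kinase 1 epsilon, read 1414.0, 1540.6, 1332.5 and 1445.4. The mean course of all 9 members stayed within −0.06 and 0.03. The nearest other genes to it were Epn2, Wars, Itga7, Slc9a3r1 and Lypla2, at 0.011 to 0.017. Both sets of 5 were picked as the smallest distances over all other tested genes, so small values were fixed by the choice. They are distances to an average and are not set against those between single members.

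Beyond the 9 genes, 31 of 44 other listed microglia and macrophage genes had a probe set of a single gene and 16 of these passed the filter. Of the 16, 0 had a called trend with limma (1 at an unadjusted p under 0.05, beside 2.02% of all tested genes). Positive slopes were found in 11 of the 16, against 49.9% of all tested genes, and 2 spanned more than 2-fold, 12.5% against 15.0% of all tested genes. Their median slope was 0.03 and the all-gene median 0.0. At 4 h 8 of the 16 were highest, where 31.4% of all tested genes were, and their median stood 0.19 log2 above the other hours. At 1 h 8 were lowest, where 24.5% of all tested genes were, and the median stood at −0.14. The actin regulator gene Coro1a read 1488.4, 1789.4, 1906.3 and 1768.5, the lysosomal gene Laptm5 793.7, 958.1, 1209.9 and 796.9, and the selectin ligand gene Selplg 940.1, 1056.6, 972.2 and 1104.4. Coro1a and Laptm5 were lowest at 1 h and highest at 4 h, the hours of the lowest and highest values of C1qc and Irf8.

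The widest spans in that list were in Rac2, a small GTPase of blood cells, at 519.3, 519.6, 465.1 and 169.0, in the Fc receptor gene Fcgr1 at 231.5, 197.8, 304.1 and 150.1, and in Mertk, a receptor for dying cells, at 219.6, 262.9, 414.6 and 256.5. Rac2 shared its low 6 h value with Cx3cr1. Several genes that define microglia or leukocytes lay near or under the floor of 38.3. Aif1, which encodes the microglial protein IBA1, read 71.0, 32.6, 36.6 and 32.1, and the integrin gene Itgam (CD11b) read 22.4, 16.3, 40.6 and 30.1. Spi1, which encodes PU.1, was below the filter at 164.1, 65.2, 97.9 and 46.8. The markers of microglia past the filter were therefore the 9 genes and 16 of 31 others, and the probe sets of Aif1 and Itgam were under the floor at 3 of 4 hours each.

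Of 36 other complement genes, 23 had a probe set and 8 passed the filter, 0 with a called trend in limma and 3 at an unadjusted p under 0.05, where 2.02% of all tested genes were. More than 2-fold spans were found in 5 of the 8, or 62.5%, beside 15.0% of all tested genes and 27.8% of those with a mean under 500. C5ar1, the receptor for the anaphylatoxin C5a, read 388.7, 340.8, 470.9 and 85.9, low at 6 h as Cx3cr1 was. C1ra, a protease that binds C1q to form C1, read 238.0, 119.3, 395.9 and 151.1, with a second probe set at 111.1, 31.1, 75.0 and 64.6. C8g, of the membrane attack complex, read 82.3, 141.7, 344.3 and 266.2, while a second set was under the floor throughout. Among regulators, vitronectin (Vtn) read 390.2, 541.5, 215.7 and 458.3 and the C1 inhibitor gene Serping1 read 254.9, 409.8, 224.4 and 388.4. Both were highest at 2 h and lowest at 4 h, as both C1qb probe sets were. Clusterin (Clu), which inhibits the terminal pathway and is abundant in astrocytes, read 8871.2, 9386.1, 8240.5 and 10763.2.

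Taking members, other microglia genes and complement genes together, 15 of 33 genes past the filter were highest at 4 h (45.5%, against 31.4% of all tested genes) and 13 of 33 were lowest at 1 h (39.4%, against 24.5%). The first share was 29.2% when all probe sets of a gene were averaged, at which setting 41.7% of the genes were highest at 6 h. The shares lowest at 4 h were 30.3% in this set and 29.2% in all tested genes. With all probe sets averaged, 45.8% of this set were lowest at 4 h. With median scaling, 36.4% were highest and 36.4% lowest at 4 h, so an excess of highest values there depends on the setting.

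Among ligands, signalling partners and ligand-shedding proteases of these receptors, 11 of 18 genes with a probe set passed the filter. With limma 0 were called, as were 0.0% of all tested genes, and 0 had an unadjusted p under 0.05, beside 2.02%. More than 2-fold spans were found in 3, beside 15.0% of all tested genes. The CSF1R ligand gene Csf1 read 875.7, 571.2, 834.9 and 773.5, and was lowest at 2 h, where Csf1r was not low. The kinase gene Syk, which acts downstream of Tyrobp, read 699.2, 720.8, 773.4 and 529.0. The adaptor gene Grb2 read 1618.8, 826.1, 767.0 and 1464.3 and the ubiquitin ligase gene Cbl, which limits CSF1R signalling, 145.8, 102.3, 251.1 and 232.4.

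In the list of IRF and myeloid transcription factors, 9 of 15 genes with a probe set passed. With limma 0 were called, as were 0.0% of all tested genes, and 0 had an unadjusted p under 0.05, beside 2.02%. A span of 2-fold was found in 0 of 9, beside 15.0% of all tested genes. Irf1 read 182.1, 193.8, 164.2 and 274.0, highest at 6 h where Irf8 was not. Irf5, chosen after its values were seen, read 334.9, 271.7, 274.8 and 210.1. The C/EBP genes spanned less than Irf1 (1.67-fold), at 1.21-fold for Cebpa and 1.4-fold for Cebpb. Their means were 1009 ± 85.9 for Cebpa and 895 ± 129 for Cebpb (SD, n = 4). The brain-wide factor Mef2a read 2353.7, 2135.9, 1424.6 and 2809.4.

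Of the cathepsins and their inhibitors, 10 of 16 genes with a probe set passed. With limma 0 were called, as were 0.0% of all tested genes, and 0 had an unadjusted p under 0.05, beside 2.02%. Past 2-fold there were 0, beside 15.0% of all tested genes. Cathepsin L (Ctsl) read 794.1, 987.3, 752.6 and 1142.6 and cystatin B (Cstb), a cytosolic cathepsin inhibitor, 1253.3, 1627.2, 1024.3 and 1493.9. Both were higher at 2 and 6 h than at 1 and 4 h, as was Ctss. Cathepsin F (Ctsf) had its highest value at 4 h instead, at 717.1, 679.7, 1128.1 and 928.6. Means were 5466 ± 508 for Ctsb, 3129 ± 394 for Ctsd and 29729 ± 2462 for the secreted inhibitor cystatin C, Cst3 (SD, n = 4).

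Markers of blood cells were mostly dim. Of 15 neutrophil genes with a probe set 3 passed the filter (Camp, Elane and Lcn2), and the granule genes S100a8 and S100a9 read 72.8, 104.5, 124.9 and 14.7 and 37.8, 25.4, 72.4 and 13.2. Their summed intensity over the 15 genes was 1399, 1836, 1587 and 1466, highest at 2 h, where the Csf3r probe set 95807_at was lowest and 93198_at was highest. Haemoglobin Hba-a1 read 4207.6, 2328.1, 2551.6 and 3814.0. The summed intensity of 12 vascular genes was 3416, 3432, 3405 and 2348, lowest at 6 h, where Cx3cr1, C5ar1 and Rac2 were lowest. These 12 are endothelial genes together with Pdgfrb and Acta2, which mark other cells of the vessel wall. Of the 12, 5 passed the filter, and 4 of these 5 were lowest at 6 h. Acta2, below the filter, read 195.6, 246.9, 221.1 and 40.6. The part of blood and vascular cells in these values was not tested. Over granule neuron, astrocyte and oligodendrocyte markers, 29 of 34 genes with a probe set passed and 0 of 29 spanned 2-fold, beside 15.0% of all tested genes. That share was 27.8% in genes with a mean intensity under 500, and brightness was not matched here.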

How the data were processed

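Per the labels, total RNA of 4 samples was measured, and the deposited values are linear array intensities, 1 for each sample at each probe set. How the authors made the intensity values is not given in the sources used here; equal trimmed means point to a common scaling of whole arrays, so they were used as deposited. Of 12488 probe sets, 66 controls, 1193 without a symbol and 396 with several were left out. Of the rest, 10817 of 10833 matched a gene by identifier in a RefSeq table (GRCm38.p6), from which symbols were updated.

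Before log2, values were raised to a floor of 38.3, their 20th percentile. Per gene the probe set with the highest mean was used, and genes at or above the 40th percentile of gene means (7.41) were tested. A line on the hour was fitted with lmFit and eBayes (intensity trend) of limma 3.58.1 under R 4.3.3, with Benjamini-Hochberg adjustment over 4951 genes and a threshold of 0.05. The fit was also run on simulated data with planted slopes, with noise drawn independently for each gene and no effect shared by an array. Its outcome is not given here and is not used as support for the absence of called trends. The number of arrays limits the precision: 1 array per hour gives no replicate error at an hour. Lists are described by counts, with no set test.

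The members, lists and tests were chosen with earlier results of these data known. Named genes are all members and, in each list, the 3 genes with the widest range and the 3 with the highest mean. By the same rule the 5 genes nearest to the mean course of the C1q chains, and the 5 nearest to that of all members, are named. Genes named outside that rule (such as Aif1, Itgam, Spi1, Csf1, Syk, S100a8 and S100a9) were chosen for their role after their values were seen. Alternatives changed the floor, filter, scaling, probe set rule, moderation, time scale and samples.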

Additional observations from a re-analysis of the deposited data

Results flagged for a closer look

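In 5 of the 13 member probe sets and 60 other named genes, 1 of the 4 samples lay far from the rest, by the gap to the nearest sample divided by the whole range in log2 units, against Dixon's critical value for 4 samples. Chance flags about 1 in 20 such groups. For Csf1r (104354_at) the ratio was 0.878, from the low value at 4 h. For Cx3cr1 it was 0.889, from the low value at 6 h. Without those arrays the spans were 1.04-fold for Csf1r and 1.05-fold for Cx3cr1. The ratio was 0.901 for Rac2, low at 6 h, 0.831 for the calcium-binding protein gene Calb1, high at 2 h, and 0.864 for the gap junction gene Gja1, low at 4 h.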

How the results depend on the processing

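Over the 14 alternatives 122 member slopes could be fitted, of which 0 were called. The changes of filter and moderation and the fit of every probe set could not alter a slope, and the higher floor altered none. Of the 122 slopes, which include these, 115 kept their sign. The exceptions were Csf1r with the mean of its probe sets (0.04 log2 per h) and slopes with 1 sample left out, which ran from −0.14 to 0.01 for C1qb, −0.18 to 0.01 for Csf1r, −0.09 to 0.04 for Tyrobp, −0.14 to 0.09 for Csf3r and −0.05 to 0.33 for Irf8; the cause was not tested. No slope was fitted for Irf8 and Cx3cr1 with the filter at the 60th percentile, for Irf8 without the 4 h sample or for Csf3r with the mean of its probe sets, since they did not pass the filter there. The number of called genes ran from 0 to 13 with 1 sample left out, from a line through 3 arrays, and was 0 under the other alternatives. The 4 h values of C1qa and C1qb stayed below and those of C1qc above the other hours under all 6 alternatives of floor, scaling and probe set rule. For C1qa and C1qc, with 1 probe set each, the higher floor and the probe set rules could not alter these values. For C1qb the higher floor and the fit of every probe set could not. Under scaling or a constant added in place of the floor, C1qa stood at −0.54 to −0.32 and C1qc at 0.24 to 0.48 log2. Of the microglia and complement genes past the filter, averaging probe sets put 29.2% highest and 45.8% lowest at 4 h. It put 41.7% highest at 6 h and 4.17% lowest at 2 h, and fewer genes then passed. Median scaling put 36.4% highest and 36.4% lowest at 4 h. With 1 sample left out, which leaves 3 hours to be highest or lowest, the shares ran from 18.8% to 31.0% highest at 1 h, 18.2% to 34.5% highest at 2 h and 20.7% to 30.3% lowest at 6 h. No paired analysis was possible because there is 1 group. Intensity over background limits Irf8 and the dimmer probe sets of Csf3r.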
